A study of Mus musculus with 141 samples.

Results

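Transcripts of 9 genes of the granule exocytosis machinery were described in single progenitor cells of mouse bone marrow. The genes, taken by a fixed list of symbols, are the syntaxins Stx3 and Stx4a, Snap23, the vesicle-associated membrane protein genes Vamp2, Vamp3, Vamp7 and Vamp8, the syntaxin-binding gene Stxbp2 and the priming gene Unc13d. All 9 were matched to an Ensembl identifier among the 46078 gene rows counted. Basophil/mast cell progenitors (BMCP) were sorted from live Kit-positive cells without lineage markers or Sca1 by high integrin beta7 and CD16/32. Granulocyte/monocyte progenitors (GMP) shared the lineage, Kit and Sca1 gate, were CD34-positive and CD16/32-high, and lay outside the BMCP gate. Bone marrow of 3 female C57BL/6 mice of unstated age gave 94 BMCP and 47 GMP, with no genetic change or treatment named for either population. No label ties a cell to a mouse, so each population counted as 1 sample and the comparisons carry no test.

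Regulated secretion ends when a granule fuses with the plasma membrane. A VAMP protein on the granule, an R-SNARE, zips together with a syntaxin and a SNAP23-type protein on the target membrane, the Q-SNAREs, and the assembled bundle pulls the membranes together. Munc18-2, encoded by Stxbp2, chaperones the syntaxin. Munc13-4, encoded by Unc13d, tethers and primes the granule and is recruited through the small GTPase Rab27. Mast cells and basophils release histamine and proteases by this route after cross-linking of their IgE receptor, and neutrophils empty their granules with much the same parts. In humans, loss of the Munc13-4 or Munc18-2 protein causes familial haemophagocytic lymphohistiocytosis, in which cytotoxic cells fail to degranulate.

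After filtering, 89 BMCP and 41 GMP remained. BMCP held 84242320 nuclear-encoded counts (96129 to 2416630 per cell, median 893037), and GMP held 55520835 (130191 to 3688848 per cell, median 1309887). The median BMCP had 5440 genes with a count and 11.3% spike-in reads, and the median GMP 7001 genes and 5.92%. As a check of the sorts, the 9 mast cell markers summed to 8117 CPM (counts scaled to 1000000 nuclear-encoded counts per population) in BMCP and 2.67 CPM in GMP, and the 7 neutrophil progenitor markers to 75.5 CPM in BMCP, against 50169 CPM in GMP. Gzmb, at 6516 CPM, and Cma1, at 1510 CPM, made up most of the mast cell sum in BMCP, where 4 of the 9 markers reached 1 CPM, 1 of them, Tpsb2, with 99.7% of its reads in a single cell. The mast cell genes Mcpt2, Mcpt4 and Mrgprb1 had no read in either population. The 6 basophil markers summed to 1720 CPM in BMCP, against 192 CPM in GMP. Single cells weighed on these sums, with 99.5% of the Prss34 reads of BMCP in number 12 and 59.5% of the Mcpt8 reads of GMP in number 3. The 7 markers shared by basophils and mast cells summed to 10082 CPM in BMCP, against 2149 CPM in GMP. Among these, Hdc went the other way, at 238 CPM in BMCP, against 518 CPM in GMP. A clustering that left out the members and the wider exocytosis lists placed 3 of the 41 GMP, numbers 8, 20 and 24, with BMCP. Results are given with all cells, and without these 3 where named.

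The members split into a group that was higher in BMCP and a group at like levels in both populations. Stx3, Unc13d and Vamp2 were at least 2-fold higher in BMCP, none was at least 2-fold lower, and the other 6 lay within 2-fold. The count of 3 of 9 stands near its background, since 25.8% of the 14554 genes with at least 1 CPM in either population were at least 2-fold higher in BMCP and 21% at least 2-fold lower. The median log2 ratio of BMCP to GMP was 0.42 over the members (second lowest -0.06, second highest 1.75), against 0.04 over all those genes. With counts scaled to spike-in reads, 1 of 9 was at least 2-fold higher (17.5% of all genes) and 1 lower (45%). With median-of-ratios size factors, 5 of 9 were higher (35.1%) and 0 lower (14.5%). These scalings moved the median of all genes to -0.82 and 0.47, and 7 of the 9 members stayed above it under each. Under spike-in scaling Stx3 remained higher at 1.42, while Unc13d and Vamp2 fell short of 2-fold. Vamp3 was lower at -1.01 there, and Stx4a, Snap23, Vamp7 and Stxbp2 turned negative, whereas under size factors Vamp3 and Vamp8 turned positive. In bulk sums such as these, fewer cells with a transcript and less transcript per cell cannot be told apart, so the values of single cells follow for each gene.

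Stx3 and its partner Stx4a, the plasma membrane syntaxins of the set, differed between the populations to unlike extents. Their promoters are printed because the pair holds the clearest contrast among members with the same role. Both come from RefSeq on GRCm38.p6, 250 bases before to 50 after the annotated start, read 5′ to 3′ on the gene's strand, Stx3 at chr19:11819354-11819653 on the minus strand and Stx4a at chr7:127841558-127841857 on the plus strand. In the GENCODE annotation used for lengths, Stx4a spans 127824294 to 127849019, so its window lies inside the gene and not at that span's start. The Stx3 window holds the GENCODE start, at 11819403. Capitals mark matches on either strand to GATAA (the GATA core), CCGGAA (the ETS core) and GGGCGG (the GC box).
Stx3: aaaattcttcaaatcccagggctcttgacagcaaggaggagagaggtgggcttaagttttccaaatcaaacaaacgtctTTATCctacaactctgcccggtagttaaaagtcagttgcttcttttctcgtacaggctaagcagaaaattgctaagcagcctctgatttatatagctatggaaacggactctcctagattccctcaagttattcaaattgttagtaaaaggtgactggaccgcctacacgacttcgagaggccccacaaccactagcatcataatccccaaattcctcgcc
Stx4a: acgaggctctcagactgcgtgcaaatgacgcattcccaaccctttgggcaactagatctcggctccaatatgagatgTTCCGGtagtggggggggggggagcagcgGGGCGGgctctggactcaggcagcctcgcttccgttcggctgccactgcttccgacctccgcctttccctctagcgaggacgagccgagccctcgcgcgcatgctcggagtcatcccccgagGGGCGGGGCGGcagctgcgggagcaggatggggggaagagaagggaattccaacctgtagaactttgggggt
The Stx3 window held 1 GATAA match and none of the other motifs, and the Stx4a window held 1 CCGGAA match, 3 GGGCGG matches and no GATAA. Of the 3 GGGCGG matches, the last pair overlap by a base. Of all 32851 promoters of this length, 25.4% hold GATAA, 14.9% CCGGAA and 35.7% GGGCGG, so these matches are common and are given only as a description of the letters. A CANNTG E-box, left in lower case, occurred in 72.3% of promoters, at 1 place in Stx3 and 2 in Stx4a.

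Stx3 (chromosome 19, 11775118 to 11819403, minus strand, GRCm38) encodes a syntaxin of the plasma membrane and granules that pairs with Munc18-2 in mast cells. It ran from 0 to 1644 CPM in BMCP with a median of 156, and from 0 to 720 CPM in GMP with a median of 2.16. The ranges overlapped, but 52 of 89 BMCP and 10 of 41 GMP exceeded 100 CPM. Summed over cells, Stx3 stood at 283 CPM in BMCP (95% Poisson limits 279 to 286) and 57.6 CPM in GMP (55.7 to 59.7), a 4.84-fold difference and a log2 ratio of 2.28. After thinning each cell to 200000 counts, 2 or more reads of Stx3 were found in 67 of 86 BMCP (77.9%, Clopper-Pearson 95% limits 67.7% to 86.1%) and 17 of 40 GMP (42.5%, 27.04% to 59.1%). Without thinning the shares were 84.3% of BMCP and 46.3% of GMP. Cell 24, one of the GMP clustered with BMCP, held 20.9% of all GMP reads of Stx3. Without the 3 GMP of that kind the log2 ratio was 2.60.

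Stx4a (chromosome 7, 127824294 to 127849019, plus strand), which encodes a plasma membrane syntaxin found in most tissues, differed less. Stx4a summed to 105 CPM in BMCP, against 71.8 CPM in GMP, a log2 ratio of 0.54, with a median over cells of 2.05 CPM in BMCP (highest 1078) and 21.6 CPM in GMP (highest 325). Sums and medians thus ran in opposite orders, and 26 of 89 BMCP and 11 of 41 GMP exceeded 100 CPM. At 2 thinned reads it was found in 36 of 86 BMCP and 22 of 40 GMP. Per kilobase of exon, which allows a comparison between genes, Stx3 stood at 49.5 CPM in BMCP, against 10.1 CPM in GMP, and Stx4a at 44.5 CPM in BMCP, against 30.4 CPM in GMP. Stx3 therefore made up 52.7% of the pair's level in BMCP and 24.9% in GMP. At least 1 of the 2 syntaxins was found in 74 of 86 BMCP and 30 of 40 GMP. Strand is not marked by the protocol, and reads from antisense genes that overlap a member would be counted alike.

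**Figure D1:**
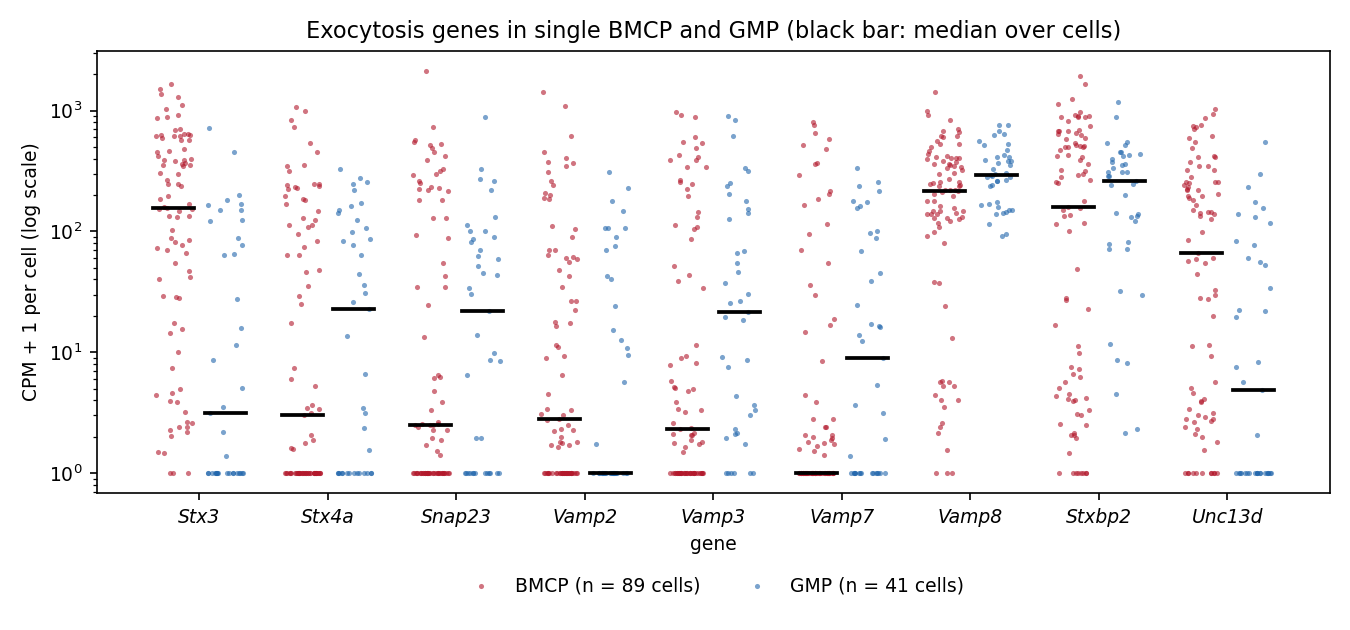
Level of each of the 9 members in every kept cell on a log10 axis of CPM + 1, BMCP left of GMP, with 1 point per cell and the population median as a bar. Stx3 has medians of 156 CPM in BMCP, against 2.16 CPM in GMP, whereas Vamp8 is above 0 in every GMP and in all but 3 BMCP.

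Snap23 (chromosome 2, 120567671 to 120601255, plus strand) encodes the ubiquitous SNAP protein that supplies a pair of helices to the fusion bundle in mast cells and platelets. Snap23 stood at 101 CPM in BMCP, against 88.8 CPM in GMP when summed, a log2 ratio of 0.19. Single cells held 0 to 2128 CPM in BMCP with a median of 1.48, and 0 to 883 CPM in GMP with a median of 21.1. It had no read in 36 of 89 BMCP and 13 of 41 GMP, and 25 of 89 BMCP and 7 of 41 GMP exceeded 100 CPM. Snap23 was found in 34 of 86 BMCP and 23 of 40 GMP. The direction differed between blocks of BMCP numbers, with 144 CPM in numbers 1 to 47 (log2 ratio to GMP 0.69) and 75.6 CPM in numbers 48 to 94 (-0.23).

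Of the 4 R-SNARE members, Vamp8 had the highest level per kilobase in both populations, and Vamp2 alone was past 2-fold. Vamp8 (chromosome 6, 72385223 to 72390703, minus strand) encodes endobrevin, the granule R-SNARE needed for full degranulation of mouse mast cells. Vamp8 ran from 0 to 1410 CPM in BMCP with a median of 215, and from 90.9 to 763 CPM in GMP with a median of 293. Its summed level was 312 CPM in BMCP, against 325 CPM in GMP, a log2 ratio of -0.06. It was found in 69 of 86 BMCP (80.2%) and in all 40 GMP. Of 86 BMCP, 67 held 10 or more thinned reads, as did all 40 GMP.

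Vamp2 (chromosome 11, 69088490 to 69092384, plus strand) encodes synaptobrevin-2, the R-SNARE of synaptic vesicles. Vamp2 summed to 76.5 CPM in BMCP, against 28.6 CPM in GMP, 2.62-fold and a log2 ratio of 1.39. The median cell had 1.81 CPM in BMCP (highest 1428) and 0 in GMP (highest 312), and the ranges overlapped. It was found in 33 of 86 BMCP (38.4%) and 14 of 40 GMP (35%), shares close to each other. Among cells with 10 or more thinned reads, 24 BMCP had a median of 177.5 CPM and 11 GMP a median of 105 CPM. BMCP number 75 held 25.2% of the Vamp2 reads of its population. Without it BMCP stood at 57.99 CPM, and the log2 ratio of 0.996 no longer reached 2-fold.

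Vamp3 (chromosome 4, 151047300 to 151057963, minus strand) encodes cellubrevin of recycling endosomes, and Vamp7 encodes the R-SNARE of late endosomes and lysosomes. Vamp3 stood at 113 CPM in BMCP, against 125 CPM in GMP (log2 ratio -0.14), with a median cell at 1.31 CPM in BMCP, against 20.7 CPM in GMP. Vamp7 stood at 77.9 CPM in BMCP, against 57.9 CPM in GMP (log2 ratio 0.42), with a median cell at 0 in BMCP and 7.87 CPM in GMP. Both were found in a minority of BMCP, Vamp3 in 29 and Vamp7 in 23 of 86, against 24 and 18 of 40 GMP. GMP number 46 held 32.96% of the Vamp3 reads of GMP, and without it the log2 ratio of Vamp3 was 0.33. In the annotation Vamp7 lies on the unplaced scaffold GL456233.1 (10738 to 39148, minus strand) and has a pseudogene, Vamp7-ps, with 90 counts in BMCP and 58 in GMP. Vamp3 lies within Camta1 on the same strand, which had 3242 counts in BMCP and 1750 in GMP, and reads of shared bases may have been left out as ambiguous.

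Relative to length, Vamp8 made up most of the 4 R-SNAREs in both populations. Its share of their summed level per kilobase was 59.99% in BMCP and 65.7% in GMP, that of Vamp3 17.4% in BMCP and 20.1% in GMP, that of Vamp7 13.7% in BMCP and 10.7% in GMP, and that of Vamp2 8.93% in BMCP and 3.50% in GMP. The summed levels were alike, at 225 CPM per kilobase in BMCP and 214 CPM per kilobase in GMP. At least 1 of the 4 was found in 79 of 86 BMCP and in 40 of 40 GMP.

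**Figure D2:**
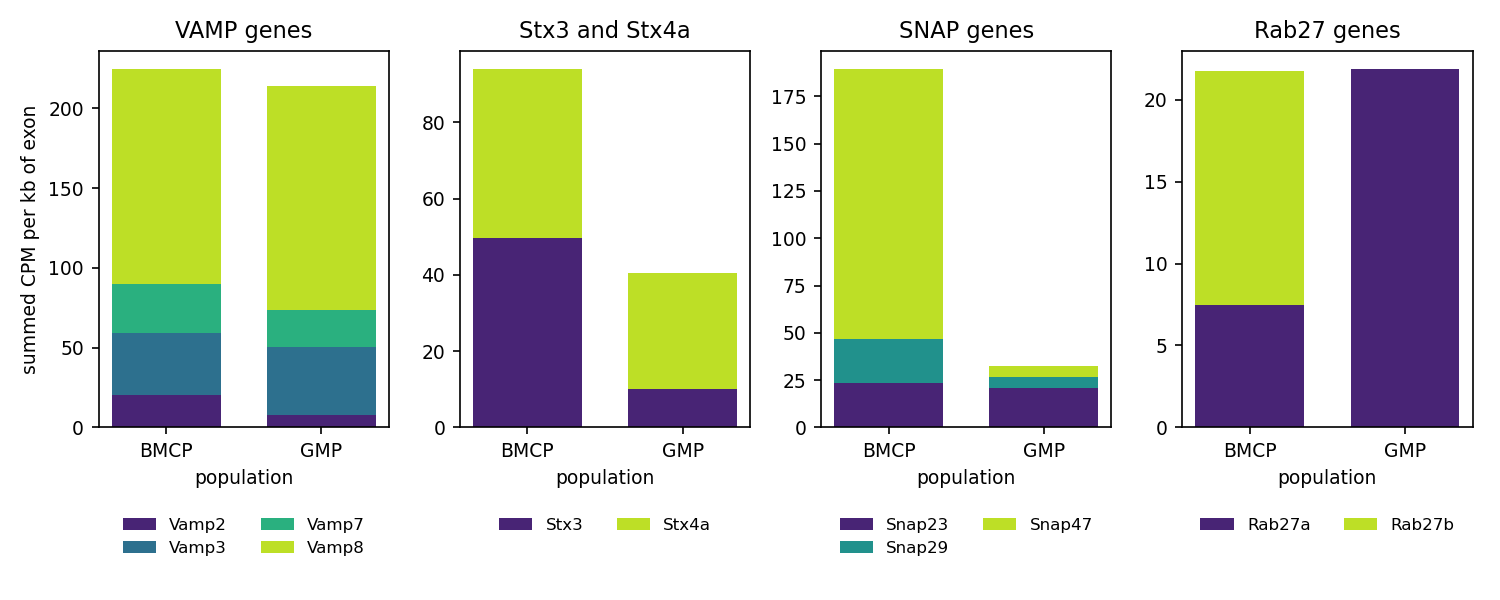
Summed level per kilobase of exon of the genes of each family, BMCP left of GMP, with the height in CPM per kilobase from 0 and a separate scale in each panel; Snap25, which is near 0, is not drawn. The R-SNARE total is 225 in BMCP and 214 in GMP, while the pair of syntaxins totals 94.0 in BMCP and 40.5 in GMP.

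Of the 2 regulators, Stxbp2 lay within 2-fold and Unc13d was higher in BMCP by summed CPM, though short of 2-fold under spike-in scaling. Stxbp2 (chromosome 8, 3630955 to 3643644, plus strand) was the member with the highest count level in BMCP. It ran from 0 to 1935 CPM in BMCP with a median of 159, and from 1.15 to 1173 CPM in GMP with a median of 261. Its summed level was 344 CPM in BMCP, against 278 CPM in GMP, a log2 ratio of 0.31, and it was found in 62 of 86 BMCP (72.1%) and 36 of 40 GMP (90%). Sums and shares ran in opposite orders, and no order is read from them. Among cells with 10 or more thinned reads, 52 BMCP had a median of 487.5 CPM of Stxbp2, against 305 CPM in 33 GMP.

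Unc13d lies on the minus strand of chromosome 11, at 116062095 to 116077961. Unc13d ran from 0 to 1028 CPM in BMCP with a median of 65.1, and from 0 to 544 CPM in GMP with a median of 3.90. It summed to 204 CPM in BMCP, against 59.8 CPM in GMP, 3.37-fold and a log2 ratio of 1.75, and was found in 56 of 86 BMCP (65.1%, 54.1% to 75.1%) and 17 of 40 GMP (42.5%, 27.04% to 59.1%). Cells with high values occurred in both populations, with 42 of 89 BMCP and 8 of 41 GMP over 100 CPM. GMP number 47 held 37.3% of the GMP reads of Unc13d. Without it GMP stood at 39.1 CPM and the log2 ratio was 2.36. Among the Munc13 genes listed, Unc13d made up 97.1% of the level per kilobase in BMCP and 93.5% in GMP.

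Detection has a background of its own in these cells. Of 5337 genes with at least 20 CPM in either population and within 2-fold between them, 93.1% were found in a smaller share of BMCP than of GMP, with a median gene found in 29.1% of BMCP and 50% of GMP. All 6 members within 2-fold did the same, which is the common behaviour of such genes here. Stx3 and Unc13d, both past 2-fold, were found in a larger share of BMCP. The shares of Vamp2 were close, at 38.4% of BMCP and 35% of GMP. Limits of the shares cover the sampling of cells only, and with 1 sample per population they do not test a difference between populations. BMCP also had fewer counts per spike-in count, 7.48 in BMCP and 13.7 in GMP, and the part of this in the shares was not tested.

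**Figure D3:**
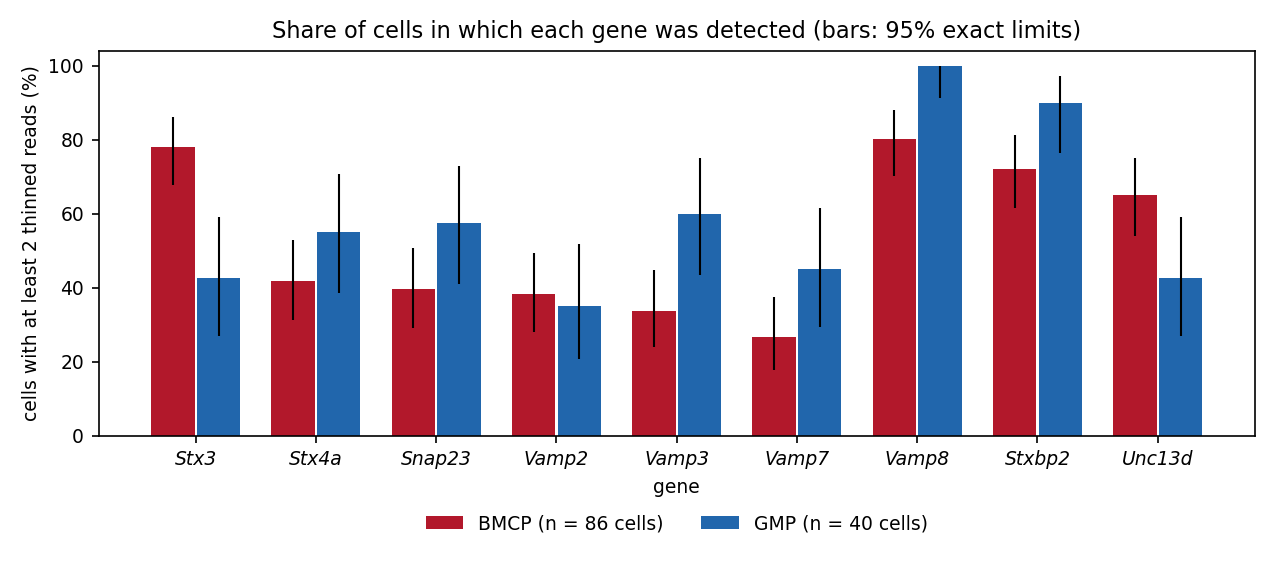
Percent of cells with 2 or more reads of each member after thinning to 200000 counts, BMCP left of GMP, with 95% Clopper-Pearson limits that cover the sampling of cells only. Stx3 is found in 77.9% of BMCP and 42.5% of GMP, and Vamp8 in 80.2% of BMCP and 100% of GMP.

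The members were seldom all found in 1 cell. A median of 5 of the 9 was found per cell in both populations (range 1 to 9 in BMCP and 3 to 8 in GMP), and all 9 were found in 1 BMCP and 0 GMP. Vamp8 and Stx3 were found together in 56 of 86 BMCP and 17 of 40 GMP, and Stx3 with Unc13d in 45 of 86 BMCP and 7 of 40 GMP. The 4 members Vamp8, Stx3, Stxbp2 and Unc13d were found together in 27 of 86 BMCP (31.4%, 21.8% to 42.3%) and 6 of 40 GMP (15%, 5.71% to 29.8%). The product of the single shares would give 25.2 BMCP and 6.50 GMP, so joint detection was close to what the single shares give. Spearman correlations over the 36 pairs ran from -0.17 to 0.19 across 89 BMCP (median 0.01) and from -0.34 to 0.23 across 41 GMP, which in counts this sparse is no finding.

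For the 4 members found in most BMCP, the genes most alike across the 89 BMCP by Spearman correlation, out of 4562 genes, were also only weakly alike. For Stx3 these were Ythdf2 (0.37), Rnf10 (0.36) and Metap2 (0.35), and for Vamp8 they were Fuca1 (0.40), Gm6472 (0.40) and Erp44 (0.37). For Stxbp2 they were Cntrl (0.40), Cs (0.40) and Tfam (0.39), and for Unc13d they were Rara (0.39), Hsd17b12 (0.38) and Gm15657 (0.35). The cells share a library preparation and vary in depth.

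The columns of the table fall into 3 blocks of numbers, BMCP 1 to 47, BMCP 48 to 94 and all GMP, which serve as a technical split that the labels do not describe. In this order, unaligned reads were 37.5%, 25.1% and 27.5%, and the median counts per cell 698383.5, 1119896 and 1309887. Stx3 was higher than in GMP in both BMCP blocks, at 315 CPM in the first (log2 ratio 2.43) and 264 CPM in the second (2.17). Unc13d stood at 181 CPM in the first block (1.58) and 218 CPM in the second (1.85), and Vamp2 at 96.2 CPM (1.72) and 64.6 CPM (1.15). Stx3 and Unc13d were thus past 2-fold in each block, with the same GMP set against both. Vamp2 was past it in the second block with BMCP number 75 counted, which lies there and held 25.2% of the BMCP reads of Vamp2. Over all BMCP the log2 ratio of Vamp2 without this cell was 0.996. The ratio in the second block without it was not computed, so Vamp2 is not read as repeated across the blocks. Vamp8 changed sign, with 242 CPM in the first block (-0.42) and 354 CPM in the second (0.12), as did Stxbp2, with 250 CPM (-0.15) and 401 CPM (0.53). Since all GMP lie in 1 block, the effect of block and that of population cannot be told apart.

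Members differed in how they spread over 3 groups of cells, BMCP but for 3 GMP, from the clustering without the members and wider lists. Cluster 2 (32 BMCP) was led by Cyp11a1, Atp8b5 and Cma1. Cluster 3 (23 BMCP) was led by Scin, St8sia6 and Atp1b2, and cluster 4 (34 BMCP and 3 GMP) by Ifitm1, Gm17590 and Jun. Cyp11a1 served here as a basophil marker and Cma1, a protease gene, as a mast cell marker. The basophil marker Mcpt8 summed to 1960, 214 and 15.3 CPM in clusters 2, 3 and 4, with medians of 10.4, 3.16 and 3.20 CPM. Cluster 1 held the other 38 GMP, led by Mpo, Elane and Ctsg. Depth differed as well, with median counts per cell of 852211.5, 1312924 and 752748 in clusters 2, 3 and 4, against 1313462.5 in cluster 1. Values of cluster 4 include its 3 GMP, of which number 24 held 455 CPM of Stx3. Unc13d was found in 26 of 30 thinned cells of cluster 2 (median 196 CPM), 16 of 23 of cluster 3 (134 CPM) and 15 of 35 of cluster 4 (3.08 CPM), against 16 of 38 of cluster 1 (4.26 CPM). The shares in clusters 4 and 1 were thus close, while the summed level was 129 CPM in cluster 4, which holds 3 GMP, against 57.9 CPM in cluster 1. Stx3 did not follow the same order, with medians of 125, 156 and 264 CPM in clusters 2, 3 and 4, against 0.796 CPM in cluster 1. It was found in 25 of 30, 21 of 23 and 23 of 35 cells of clusters 2, 3 and 4, against 15 of 38 of cluster 1. Vamp8 was found in 22 of 30, 22 of 23 and 27 of 35 cells, against 38 of 38. Snap23 was found in 17 of 30, 8 of 23 and 10 of 35 cells, against 22 of 38.

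**Figure D4:**
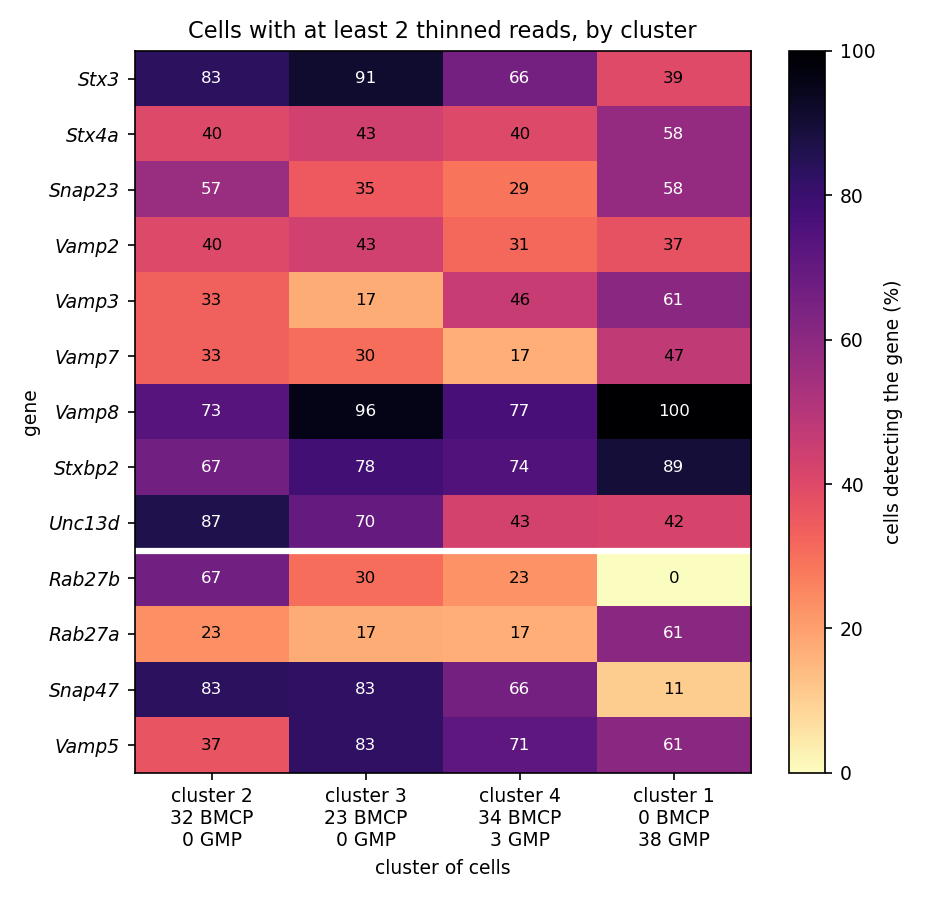
Percent of thinned cells with 2 or more reads of each member, and of 4 further genes of secretion, in the 4 clusters made without these genes. Clusters 2, 3 and 4, of BMCP but for 3 GMP in cluster 4, stand before GMP cluster 1. Unc13d is at 86.7% in cluster 2 and 42.9% in cluster 4, and Rab27b is at 66.7% in cluster 2 and 0% in cluster 1.

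The wider machinery was taken from 9 lists of 79 further matched genes. Of the 57 with at least 1 CPM in either population, 15 were at least 2-fold higher in BMCP (25.8% of all genes) and 3 lower (21%), with a median log2 ratio of 0.57. At 20 CPM the counts were 12 and 1 of 49, against 21.6% higher and 18.7% lower over all genes. For most lists, counts of genes higher and lower were 5 and 1 of 7 for Rab27 and its effectors, 3 and 0 of 12 for other syntaxins and 2 and 0 of 8 for other SNAP and Qb-type SNAREs. They were 1 and 0 of 5 for other R-SNAREs, 1 and 1 of 3 for other priming genes, 1 and 0 of 4 for the recycling factors and 1 and 0 of 9 for the exocyst. Of the 12 calcium sensors and complexins, the proteins that clamp or trigger fusion at synapses, 0 reached 1 CPM in either population. The highest were Syt11, at 0.273 CPM in BMCP, against 0.901 CPM in GMP, Syt3, at 0 in BMCP and 0.792 CPM in GMP, and Cplx2, at 0.0356 CPM in BMCP.

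The Rab27 genes, which tether granules and recruit Munc13-4, ran in opposite directions. Rab27b stood at 153 CPM in BMCP, against 0.252 CPM in GMP, where it rests on 14 reads and is 0.0559 CPM without GMP number 29, with a log2 ratio of 6.94. Rab27a stood at 28.96 CPM in BMCP, against 84.9 CPM in GMP, a log2 ratio of -1.52, and BMCP number 57 held so many reads that BMCP stood at 19.02 CPM without it. Rab27b was found in 20 of 30, 7 of 23 and 8 of 35 cells of clusters 2, 3 and 4, against 0 of 38 of cluster 1. Rab27a was found in 7 of 30, 4 of 23 and 6 of 35, against 23 of 38. Per kilobase the summed level of the pair was 21.7 CPM in BMCP, against 21.9 CPM in GMP, with Rab27b at 65.7% in BMCP and 0.108% in GMP. By the length of the longest transcript the pair stood at 31.3 CPM in BMCP, against 26.8 CPM in GMP. The near-equal totals thus depend on the length used. Sytl4, which encodes the Rab27 effector granuphilin, stood at 62.4 CPM in BMCP (31.5 without number 91) and 0.180 CPM in GMP, from 10 reads of 1 cell. Sytl1, an effector of the same family, stood at 146 CPM in BMCP, against 20.4 CPM in GMP (11.4 without number 46), a log2 ratio of 2.77.

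**Figure D5:**
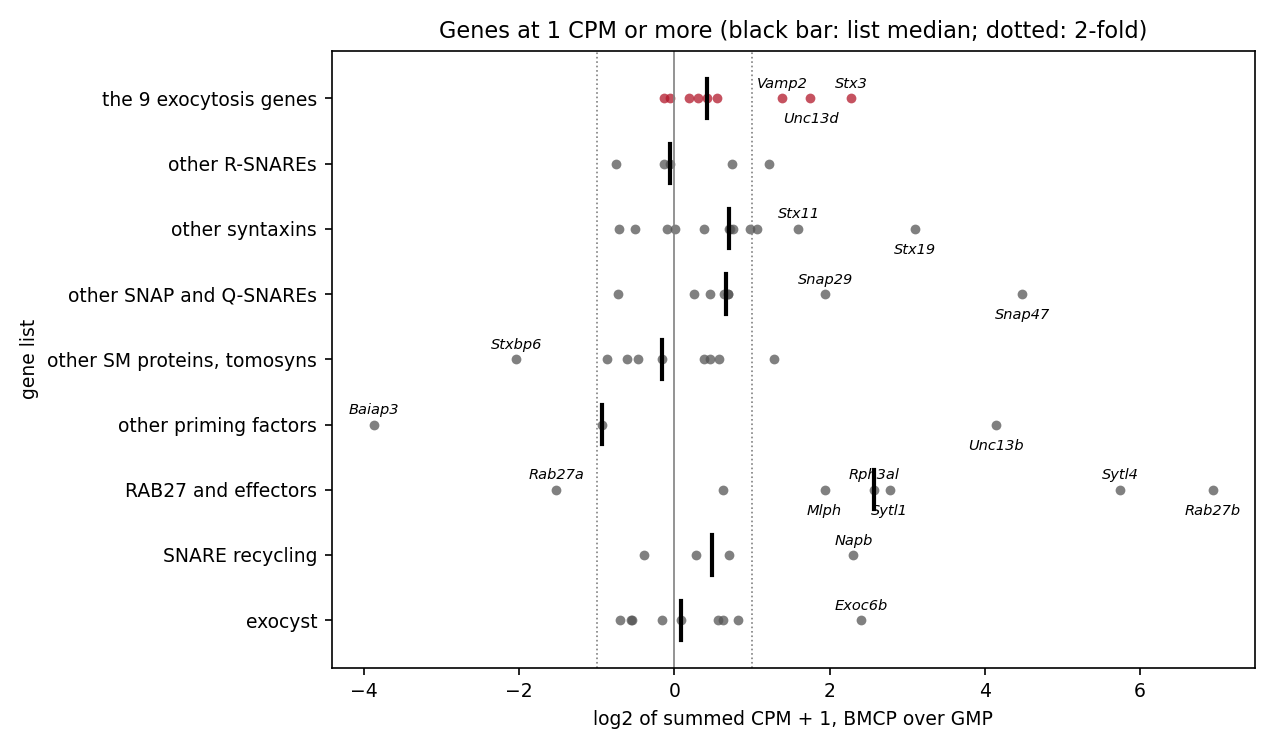
Log2 ratio of BMCP to GMP for each gene with at least 1 CPM in either population, by list, with the members first, the list median as a bar and 2-fold limits as lines. The members run from -0.14 to 2.28, and Rab27 and its effectors from -1.52 to 6.94.

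The SNAP and syntaxin families also shifted in composition. Snap47, which encodes a SNAP-type protein of internal membranes, stood at 379 CPM in BMCP, against 15.99 CPM in GMP (8.81 without number 12), a log2 ratio of 4.48, and was found in 67 of 86 BMCP and 4 of 40 GMP. Snap29, a SNAP-type gene of endosomal and autophagosomal fusion, stood at 79.1 CPM in BMCP, against 19.8 CPM in GMP (1.95). Per kilobase, Snap23 made up 12.5% of the 4 SNAP genes in BMCP and 63.7% in GMP, and Snap47 made up 75.4% in BMCP and 18.6% in GMP. The share of Snap23 was thus smaller in BMCP although its own summed level was much the same. Vamp5, an R-SNARE gene first known from muscle, stood at 187 CPM in BMCP, against 79.4 CPM in GMP (1.22). It was found in 11 of 30, 19 of 23 and 25 of 35 cells of clusters 2, 3 and 4, against 23 of 38 of cluster 1.

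Of the other genes past 2-fold, Stx11, Unc13b and Napb were found in few cells, at 5, 7 and 4 of 86 BMCP, against 3, 0 and 2 of 40 GMP. Stx16 was found in 25 of 86 BMCP and 14 of 40 GMP, and Exoc6b in 22 of 86 BMCP and 9 of 40 GMP. Stx11, whose human counterpart is another familial haemophagocytic lymphohistiocytosis gene, stood at 26.04 CPM in BMCP (11.9 without number 67) and 7.92 CPM in GMP (3.92 without number 11). Its log2 ratio of 1.60 was 0.53 without BMCP number 67. Stx16, a syntaxin gene of the trans-Golgi network, stood at 75.98 CPM in BMCP, against 35.7 CPM in GMP (1.07), and leaving out any of 7 single cells took it under 2-fold, with 0.78 the lowest. Unc13b, a Munc13 gene, stood at 20.1 CPM in BMCP (12.5 without number 41) and 0.198 CPM in GMP, and Napb, an alpha-SNAP relative, at 24.2 CPM in BMCP (10.7 without number 27) and 4.09 CPM in GMP (0.146 without number 21). Exoc6b, an exocyst subunit gene, stood at 76.5 CPM in BMCP, against 13.6 CPM in GMP (5.44 without number 42), a log2 ratio of 2.41.

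Other genes among the highest of their lists mostly lay within 2-fold, with Baiap3 the exception. Stx5a, a Golgi syntaxin gene, stood at 320 CPM in BMCP, against 189 CPM in GMP (log2 ratio 0.76), and Stx7, an endosomal one, at 112 CPM in BMCP, against 68.2 CPM in GMP (0.71). Sec22b, an R-SNARE gene of the endoplasmic reticulum, stood at 108 CPM in BMCP, against 183 CPM in GMP (-0.75), and the Golgi SNARE gene Bet1 at 83.6 CPM in BMCP, against 140 CPM in GMP (-0.73). Gosr2, of the same route, stood at 117 CPM in BMCP, against 72.3 CPM in GMP (0.69). Of these 5, Stx5a, Stx7 and Gosr2 stood higher in BMCP and Sec22b and Bet1 lower, each by less than 2-fold. Napa, which encodes alpha-SNAP for the release of spent SNARE bundles, stood at 236 CPM in BMCP, against 194 CPM in GMP (0.28), Napg at 49.7 CPM in BMCP, against 30.1 CPM in GMP, and the ATPase gene Nsf at 39.99 CPM in BMCP, against 52.7 CPM in GMP. Among the Munc18-type genes and tomosyns, Vps33b stood at 87.8 CPM in BMCP, against 67.4 CPM in GMP, Scfd1 at 68.5 CPM in BMCP, against 125 CPM in GMP, and Stxbp5 at 56.2 CPM in BMCP, against 86.4 CPM in GMP. Of the exocyst genes other than Exoc6b, Exoc2 stood at 163 CPM in BMCP, against 105 CPM in GMP, Exoc5 at 120 CPM in BMCP, against 67.5 CPM in GMP, and Exoc4 at 64.9 CPM in BMCP, against 106 CPM in GMP. The priming genes Unc13a and Baiap3 were low, Unc13a at 5.28 CPM in BMCP (0.0839 without number 64) and 11.005 CPM in GMP (6.15 without number 46), and Baiap3 at 0.0119 CPM in BMCP, from 1 read, and 13.8 CPM in GMP (7.36 without number 3), a log2 ratio of -3.87.

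Platelets and cytotoxic lymphocytes also use this machinery, so their markers are given beside it. The 6 megakaryocyte and platelet markers summed to 308 CPM in BMCP (0 to 2047 per cell) and 144 CPM in GMP (0 to 1721 per cell), with Ppbp at 0 in both and Pf4 at 0 in GMP. Itga2b gave 294 CPM of this sum in BMCP and 141 CPM in GMP. The 6 T and NK cell markers summed to 1185 CPM in BMCP (3.33 to 4418 per cell) and 1128 CPM in GMP (23.0 to 4427 per cell). Of these 6, 1 reached 1 CPM in each population, Nkg7, and Cd3g and Gzma were at 0 in both. Gzmb was counted among the mast cell markers and is not in this list. The part of the platelet markers in the members' levels was not tested.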

How the data were processed

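Single cells were processed by a Smart-seq2-type protocol with oligo-dT priming, 23 PCR cycles, ERCC spike-ins, Nextera XT libraries and single-end reads of 50 bases, per the labels' protocols. No molecular identifiers are named, so the Poisson limits cover counting error only. The Clopper-Pearson limits of shares cover the sampling of cells only. The authors deposited a table of raw counts, with a gene in each row and a cell in each column. GSNAP and HTSeq 0.5.3p3 and the build mm10 are named in the submitters' processing notes, and which annotation was counted is not given in the sources. Rows for unassigned, ambiguous and unaligned reads (15.3%, 4.57% and 29.4% of all rows' reads) stayed out of totals. In the same order they were 17.6%, 3.77% and 30.4% in BMCP, against 11.1%, 6.03% and 27.5% in GMP. The part of this difference in the ratios was not tested. Symbols, lengths and coordinates come from GENCODE vM21 on GRCm38.

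Cells were kept with at least 50000 nuclear-encoded counts, 1000 genes, at most 10% mitochondrial counts (37 genes) and at most 50% spike-in reads, which left out 11 of 141. No 2 cells had identical counts, and no doublet caller was run on these singly sorted cells. Counts were summed per population, the ratio is log2 of BMCP over GMP after adding a pseudocount of 1 CPM, and the floor of 3 counts is 0.0356 CPM in BMCP and 0.0540 CPM in GMP. Each population is 1 sample, so no p-value was computed and 2-fold served as the limit. Shares used cells thinned to 200000 counts (86 BMCP, 40 GMP). Ward clustering (4 clusters, 10 principal components, 1000 variable genes) left out the members and wider lists. Named wider genes are those past 2-fold that reach 20 CPM in either population, and the 2 highest per list and population. Some genes that this rule names are not reported here. Members and lists were chosen with earlier results of these data known. If leaving out the cell with most reads moves a named wider gene's CPM over 1.5 times, that CPM is given as well. The steps were tested on simulated data. Alternatives changed the scaling, weight of cells, pseudocount, filters, depth and single cells. The software was scipy 1.17.1, pandas 2.3.3, numpy 2.4.6 and matplotlib 3.10.9 under Python 3.11.15.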

Additional observations from a re-analysis of the deposited data

How the results depend on the processing

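The members' median log2 ratio of 0.42 fell to -0.44 under spike-in scaling, and ran from 0.29 to 0.56 when single cells were left out. The 3 members at least 2-fold higher in BMCP became 5 with size factors and 1 with spike-in scaling, and 2 to 3 when single cells were left out; the 0 lower became 1 with spike-in scaling and stayed 0 when single cells were left out. The median of all genes moved with the scaling as well, and the members' median stayed above it in each by 0.38 to 0.61. Over all alternatives, the members called higher kept at least 2-fold in 45 of 48 values. The values short of it were those of Unc13d and Vamp2 under spike-in scaling and of Vamp2 without BMCP number 75. Part of the count of 45 was fixed in advance. The filters on low genes leave a gene's ratio unchanged, and the highest leave-one-out value cannot lie below it. Of the wider genes, 3 were lower in the summed CPM, against 18 with spike-in scaling, 5 with the mean of the cells' CPM, 6 after thinning, 1 at 20 CPM, and 10 and 8 with BMCP numbers 1 to 47 and 48 to 94 alone; the 15 higher ran from 11 to 22 over the alternatives. The cause of these moves was not tested. No paired analysis was possible because the result comes from no test and the numbers only name cells. Depth limits the shares, since 69 BMCP and 35 GMP had at least 500000 counts, and 1 sample per population leaves the spread between mice unknown.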
